A study of Homo sapiens with 18 samples.

Results

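The Notch genes described here are 10 of the 28277 genes in a table of RNA-seq read counts, taken by their symbols: the receptors NOTCH1, NOTCH2 and NOTCH3, the ligands JAG1, JAG2, DLL1 and DLL3, and the target genes HES1, HEY1 and HEY2. They were measured in 18 libraries of OVCAR3, an established line from a human ovarian carcinoma. All of the cells, controls included, carried dCas9-KRAB from a lentivirus, a Cas9 that cannot cut fused to a repressor domain, which silences the promoter that its guide RNA matches (CRISPR interference). The guide sgControl was a negative control against a Gal4 promoter, and sgXIST7 and sgXIST9 were aimed at the promoter of XIST, the long noncoding RNA that coats and silences an X chromosome. Cells with each guide were cloned by limiting dilution and grown in normoxia or exposed to 1% oxygen for 24 h (hypoxia), with 3 biological replicates in each of the 6 groups. The sources used here do not say which clone each library came from, so that the effect of a guide and the character of its clone cannot be told apart, and p-values measure the spread between these cultures.

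Notch receptors are membrane proteins that are activated by ligands on a neighbouring cell. Jagged and Delta-like ligands pull on the receptor when they are endocytosed, ADAM proteases and then gamma-secretase cut it, and the freed intracellular domain joins the DNA-binding protein RBPJ and Mastermind coactivators on target promoters. HES and HEY proteins, the best known products of these targets, are repressors that act on other genes and often on their own promoters. In ovarian carcinoma NOTCH3 is known for its amplification in a share of serous tumours, and Notch signalling is often studied for its part in stem-like tumour cells and in the response to low oxygen.

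Libraries held 11794375 to 24906936 counts on genes. XIST, the targeted gene, had 1589 to 11209 counts in the 6 sgControl libraries, 0 to 5 in the 6 sgXIST7 libraries and 357 to 1009 in the 6 sgXIST9 libraries. Of 10 well-known hypoxia genes, 8 rose after hypoxia in sgControl, 9 in sgXIST7 and 9 in sgXIST9. Of 11 markers of ovarian carcinoma epithelium, KRT7, CDH1 and CLDN3 were at 3 counts or fewer in every library. Group means of MUC16, KRT19, CLDN4 and WT1 were at most 0.461 CPM (counts scaled for the size of each library). PAX8 was at 1.51 to 4.55 CPM. EPCAM (160 to 243 CPM), KRT18 (140 to 219 CPM) and KRT8 (4.41 to 34.7 CPM) were present. Of 7 markers of fibroblasts and stroma, the collagen genes COL3A1 and COL1A2 were at 523 to 1018 and 0.213 to 189 CPM. COL1A1 was at most 5.21 CPM, and DCN, LUM, PDGFRA and PDGFRB were at most 1.56 CPM. The identity of the line was not tested. The endothelial markers, of interest because endothelium uses Notch ligands, summed to at most 0.893 CPM in any library. On the third principal component (10.0% of the variance) the hypoxia library of replicate 3 lay above the other two in each line, and results that this touches are given with and without the replicate 3 libraries.

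The promoters of HES1 and JAG1 are shown because both genes rose after hypoxia in each line and each holds a motif that was searched for. The sequences are the 250 bases before the RefSeq start of each gene (GRCh38.p14), HES1 at chr3:194135898-194136147 on the plus strand and JAG1 at chr20:10674000-10674249 on the minus strand. Capitals mark TGGGAA, the core of the site that RBPJ binds, in HES1, and ACGTG, the core of the hypoxia-inducible factor (HIF) site, in JAG1.
HES1: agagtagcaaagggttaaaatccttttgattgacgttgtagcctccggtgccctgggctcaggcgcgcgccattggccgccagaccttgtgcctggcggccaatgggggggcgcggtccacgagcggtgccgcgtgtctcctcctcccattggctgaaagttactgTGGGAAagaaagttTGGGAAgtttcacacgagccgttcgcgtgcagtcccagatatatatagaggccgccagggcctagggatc
JAG1: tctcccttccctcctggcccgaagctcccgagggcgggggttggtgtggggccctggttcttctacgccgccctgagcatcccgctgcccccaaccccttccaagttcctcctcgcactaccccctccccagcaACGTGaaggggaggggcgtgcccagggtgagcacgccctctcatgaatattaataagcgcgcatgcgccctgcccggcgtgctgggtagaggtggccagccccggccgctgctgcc
The HES1 promoter held TGGGAA at 84 to 79 and again at 70 to 65 bases before the start, both on the gene's own strand, and 3 matches to CACNAG, the N-box bound by HES proteins, but none to ACGTG. In JAG1 the HIF core lay 116 to 112 bases before the start. RefSeq promoters were at hand for 7 of the 10 members. Both strands were searched and the motifs were not masked for overlap, and TGGGAA was found in 2 of the 7 (HES1 and HEY2), CACNAG in 2 (HES1 and NOTCH3) and ACGTG in 1 (JAG1). Over all 35116 promoters the shares with a match were 20.8%, 32.0% and 18.5%, so that matches are common, and a match says only that these letters are in the window.

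The knockdown (KD) lines held more RNA of NOTCH3 and of HEY1 than the sgControl line in both oxygen conditions, and HES1 was higher in the sgXIST7 line. A gene was called when its Benjamini-Hochberg adjusted p from edgeR was under 0.01 and its log2 fold change was over 1 in size. Of the 10 members, 8 passed the filter on low counts and were tested, and DLL1 and HEY2 were not. In normoxia 3 members rose with sgXIST7 (NOTCH3, HES1 and HEY1) and none fell. Over all 14938 genes tested, 7.76% were called in this comparison, 4.67% higher and 3.09% lower. With sgXIST9 in normoxia 2 members rose (NOTCH3 and HEY1), beside 7.70% of all genes, 3.93% higher and 3.77% lower. In hypoxia 4 members rose with sgXIST7 (NOTCH3, JAG2, HES1 and HEY1) and JAG1 fell, where 14.0% of all genes were called, 7.83% higher and 6.19% lower. With sgXIST9 in hypoxia 3 members rose (NOTCH3, HES1 and HEY1), where 9.53% of all genes were called, 6.14% higher and 3.39% lower. The median log2 fold change of the 8 members tested lay between 0.28 and 0.60 in these 4 comparisons, and that of all genes between -0.02 and -0.01. In normoxia the member medians include JAG1, which was at 3 counts or fewer in each library there.

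After hypoxia JAG1, HES1 and HEY1 rose in every line, and in the sgXIST7 line NOTCH1 fell. JAG1 passed the filter on low counts only through its hypoxia libraries, where it was high. In sgControl cells 3 members were called, and 19.7% of all genes, 11.3% higher and 8.49% lower. In sgXIST7 cells 4 were called, and 27.3% of all genes, 15.1% higher and 12.2% lower. In sgXIST9 cells 3 were called, and 23.3% of all genes, 14.7% higher and 8.58% lower. The 3 responses come from separate libraries. In a bulk library, a change in the share of cells that express a gene and a change in RNA per cell cannot be told apart.

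**Figure D1:**
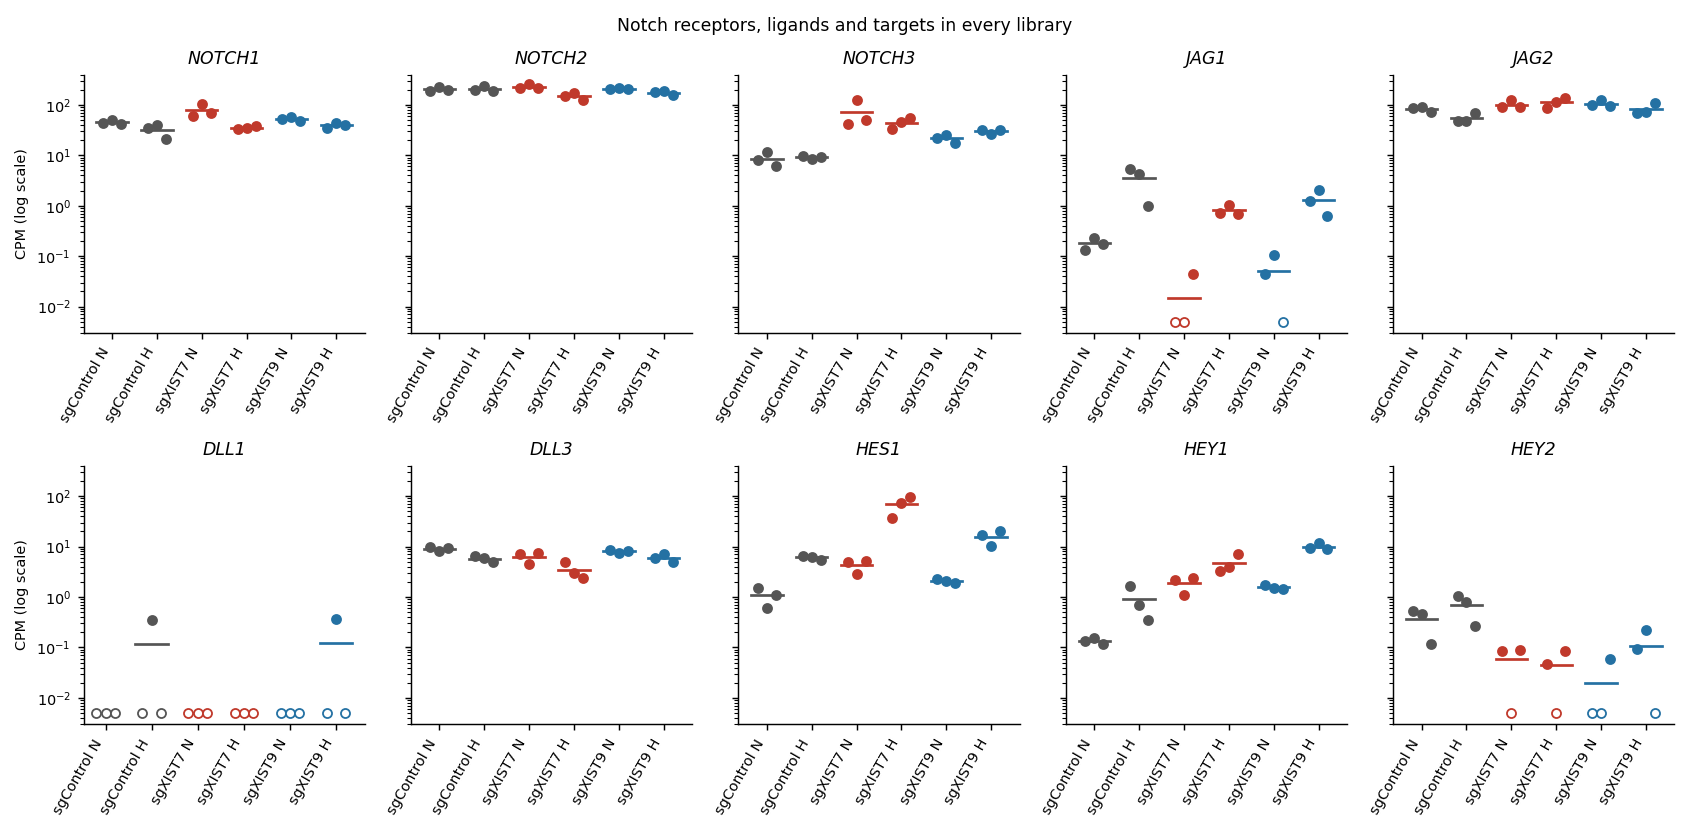
CPM of each member in the 18 libraries on a log axis, by group (N normoxia, H hypoxia) and in the order of replicates 1 to 3. Points are libraries, short lines are group means, and open circles at the foot are libraries with 0 counts. HES1 in sgXIST7 hypoxia (37.6 to 94.4 CPM) lies above every other group, and NOTCH3 is lowest in the 2 sgControl groups.

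Among the receptors, NOTCH3 (chr19:15159038-15200995, minus strand, hg38) separated the lines. NOTCH3 was at 8.19, 11.4 and 6.20 CPM in the sgControl libraries in normoxia, at 42.2, 123.0 and 50.5 CPM with sgXIST7 and at 21.7, 25.3 and 17.8 CPM with sgXIST9. The 3 ranges did not overlap, and replicate 2 of sgXIST7 stood above the other two. The log2 fold change was 3.07 ± 0.34 (SE, adjusted p = 3.78e-06) with sgXIST7 and 1.34 ± 0.33 (adjusted p = 0.00722) with sgXIST9. Without sgXIST7 replicate 2 the former was 2.44 and still called. In hypoxia NOTCH3 was at 9.81, 8.34 and 9.22 CPM in sgControl, 33.5, 46.5 and 54.0 in sgXIST7 and 31.5, 26.4 and 32.3 in sgXIST9. Both KD groups again lay above all sgControl libraries, by 2.29 ± 0.33 (adjusted p = 4.77e-05) and 1.72 ± 0.33 (adjusted p = 0.000770) on the log2 scale. Hypoxia itself was followed by no call for NOTCH3, with log2 fold changes of 0.09 in sgControl (95% interval -0.63 to 0.81), -0.69 in sgXIST7 (-1.33 to -0.04) and 0.48 in sgXIST9 (-0.18 to 1.13). The sgXIST9 call in normoxia was lost when sgControl replicate 1 or 3 or any of the sgXIST9 replicates was left out, with log2 fold changes of 1.14 to 1.46 and adjusted p of 0.0101 to 0.0452. Without the replicate 3 libraries NOTCH3 was still called with sgXIST7 in both conditions but with sgXIST9 in neither, at 1.26 (adjusted p = 0.111) in normoxia and 1.68 (adjusted p = 0.0271) in hypoxia.

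NOTCH1 (chr9:136494433-136546048, minus strand), the receptor mutated in T-cell leukaemia, was at 43.9, 51.3 and 42.1 CPM in sgControl normoxia and 59.97, 105.5 and 67.7 CPM in sgXIST7 normoxia. These ranges did not overlap, but the log2 difference of 0.76 ± 0.21 (adjusted p = 0.0141) was not called. After hypoxia the sgXIST7 libraries were at 32.6, 34.9 and 37.4 CPM, all below their normoxia values. NOTCH1 fell by 1.15 on the log2 scale there (SE 0.21, adjusted p = 0.000179), and by 0.87 once sgXIST7 normoxia replicate 2 was left out, which ended the call. The log2 changes in sgControl (-0.54, 95% interval -0.99 to -0.09) and sgXIST9 (-0.40, -0.84 to 0.04) were not called. The lowest NOTCH1 value, 20.7 CPM, was in sgControl hypoxia replicate 3.

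NOTCH2 (chr1:119911553-120069703, minus strand), a receptor with broad expression, was called in no comparison. It lay between 192 and 254 CPM in the 9 normoxia libraries, with log2 differences from sgControl of 0.16 (95% interval -0.09 to 0.41) for sgXIST7 and 0.04 (-0.21 to 0.29) for sgXIST9. After hypoxia it was at 201, 235 and 192 CPM in sgControl, 153, 170 and 128 CPM in sgXIST7 and 177, 186 and 157 CPM in sgXIST9. All 6 KD libraries were thus below the sgControl libraries, and in sgXIST7 the change from normoxia of -0.61 ± 0.12 (adjusted p = 0.000298) was past the p threshold but under the fold threshold. NOTCH2 counts are uncertain to the extent that reads are shared with its partial copies, the NOTCH2NL genes, which held 15.5% as many counts as NOTCH2 over the 18 libraries.

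Of the ligands, JAG1 (chr20:10637684-10673999, minus strand), a Jagged ligand of epithelium and vessels, was close to absent in normoxia and rose in each line after hypoxia. Its counts in normoxia were 2, 3 and 3 in sgControl, 0, 0 and 1 in sgXIST7, and 1, 2 and 0 in sgXIST9, which are at or under the detection limit of 3 counts per library, so that no fold between lines is given there. After hypoxia the counts were 85, 87 and 11 in sgControl (5.31, 4.32 and 0.975 CPM), 15, 23 and 8 in sgXIST7 (0.717, 1.04 and 0.691 CPM) and 27, 46 and 10 in sgXIST9 (1.23, 2.09 and 0.631 CPM). Every hypoxia library was above every normoxia library of its line. The depth-corrected ratio of summed counts was 21.8 in sgControl (95% interval 10.8 to 51.3), 54.0 in sgXIST7 (9.22 to 2179) and 27.0 in sgXIST9 (8.92 to 133.5), where the intervals cover counting error only. The adjusted p from edgeR was 4.96e-05, 0.000234 and 0.000151. As JAG1 passed the filter only through its hypoxia libraries, these calls add no support to the counts.

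Under hypoxia JAG1 was lower with sgXIST7 than in sgControl, by a log2 fold change of -2.11 ± 0.53 (adjusted p = 0.00428). It was also at -1.42 ± 0.50 with sgXIST9 (adjusted p = 0.0394, not called). The groups overlapped in both comparisons, as sgControl replicate 3 was at 0.975 CPM. The sgXIST7 call was lost with any of 5 of these 6 libraries left out, at -1.72 to -2.34 (adjusted p of 0.0124 to 0.0291), and was kept without sgControl replicate 3. It was also lost when only the 2 groups compared were fitted (-2.11, adjusted p = 0.0321). Without the replicate 3 libraries the differences were -2.43 for sgXIST7 (adjusted p = 0.000194) and -1.53 for sgXIST9 (adjusted p = 0.00478), both called, and leaving out sgControl replicate 3 alone was enough for the sgXIST9 call (-1.84, adjusted p = 0.00160).

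JAG2 (chr14:105140996-105168776, minus strand), the other Jagged ligand, had the highest level per length (RPKM) of the 4 ligands in each group. In normoxia its ranges were 72.4 to 89.0 CPM in sgControl, 89.3 to 123 CPM in sgXIST7 and 94.5 to 125 CPM in sgXIST9, and no difference was called. In hypoxia it was at 47.2, 48.5 and 67.9 CPM in sgControl, 87.9, 112 and 137 CPM in sgXIST7, and 68.6, 72.7 and 110 CPM in sgXIST9. Both KD groups lay above all of the sgControl libraries, and JAG2 was called with sgXIST7 (log2 fold change 1.05 ± 0.21, adjusted p = 0.000796) and not with sgXIST9 (0.62 ± 0.21, adjusted p = 0.0320). The sgXIST7 value is close to the fold threshold and passed under it, at 0.88 to 0.97, without sgControl hypoxia replicate 1 or 2 or sgXIST7 hypoxia replicate 3. JAG1 and JAG2 therefore differed from sgControl in opposite directions in the same sgXIST7 hypoxia libraries.

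DLL3 (chr19:39498947-39508469, plus strand), a Delta-like protein known to hold Notch inside the cell, was low in all groups and was called in none of the comparisons. Its range was 8.20 to 9.86 CPM in sgControl normoxia, 4.87 to 6.38 CPM after hypoxia, 4.55 to 7.45 and 2.42 to 4.92 CPM in sgXIST7, and 7.33 to 8.57 and 4.86 to 7.12 CPM in sgXIST9. The hypoxia means were below the normoxia means in the 3 lines, with log2 changes of -0.67 ± 0.24 in sgControl, -0.86 ± 0.25 in sgXIST7 (adjusted p = 0.00666, under the fold threshold) and -0.42 ± 0.24 in sgXIST9. The sgXIST7 change passed both thresholds without sgXIST7 normoxia replicate 2 (-1.04) or hypoxia replicate 1 (-1.20). Without the latter library DLL3 was also called under hypoxia against sgControl (-1.06) and against sgXIST9 (-1.12), where it was at -0.71 and -0.77 with it. DLL1 (chr6:170282206-170291078, minus strand), a classic activating ligand, had 15 counts in all, 7 in sgControl hypoxia replicate 2 and 8 in sgXIST9 hypoxia replicate 2, and 0 in the other 16 libraries. A count of 0 allows up to 3 counts in a library, and DLL1 overlaps FAM120B on the opposite strand, so that these few counts are uncertain.

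**Figure D2:**
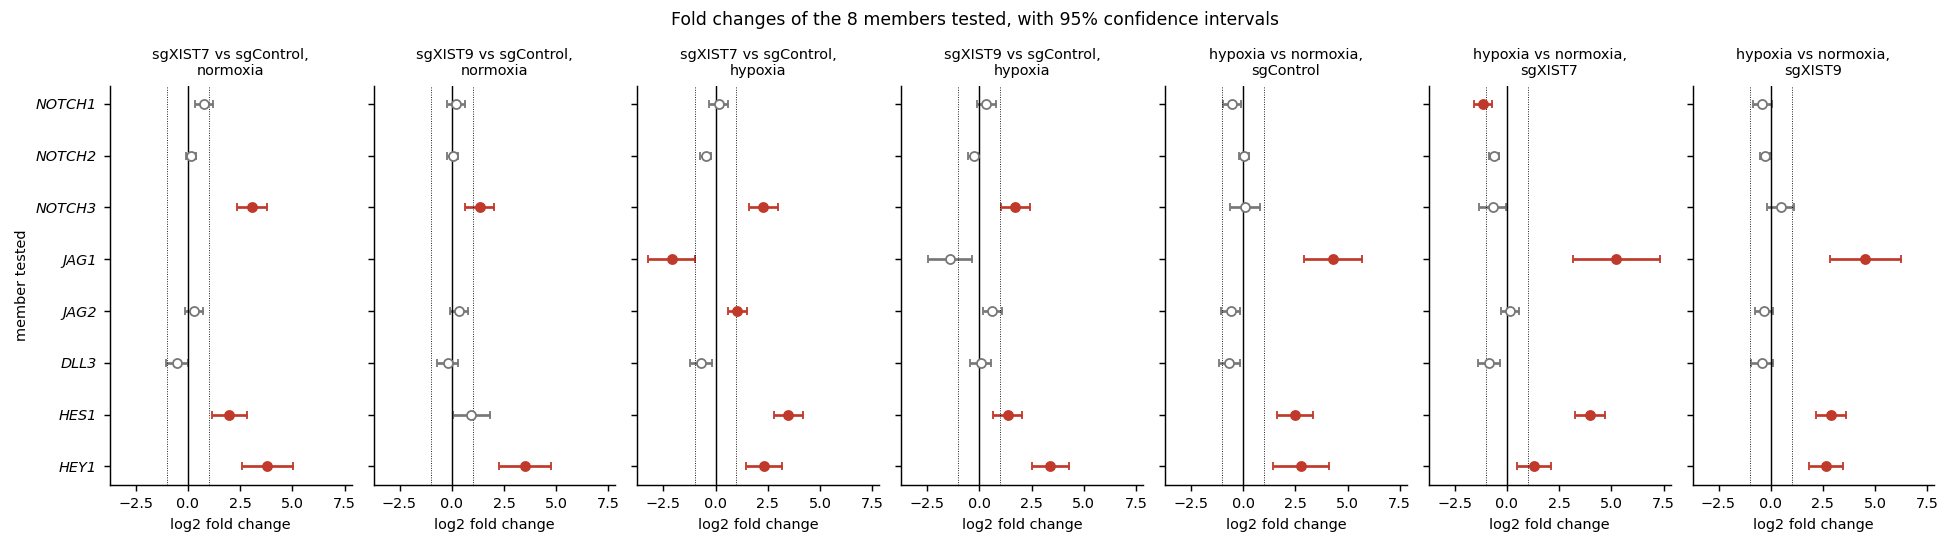
Log2 fold changes of the 8 members tested, with 95% confidence intervals, in 4 comparisons of a KD line with sgControl and 3 of hypoxia with normoxia. Filled red points were called, open points were not, and dotted lines mark a log2 fold change of 1 in each direction. JAG1 in normoxia is left out because both groups were at 3 counts or fewer. NOTCH3 and HEY1 are called in the 4 comparisons with sgControl, and JAG1, HES1 and HEY1 in the 3 comparisons with normoxia.

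HES1 (chr3:194136148-194138732, plus strand), the repressor most often read as a Notch target, was called in 7 of the 9 comparisons of pairs of groups. In normoxia it was at 1.54, 0.619 and 1.09 CPM in sgControl, 4.97, 2.83 and 5.23 CPM in sgXIST7 and 2.28, 2.12 and 1.93 CPM in sgXIST9. The lines were ordered sgControl, sgXIST9 and sgXIST7 with no overlap. The log2 fold change from sgControl was 1.99 ± 0.40 for sgXIST7 (adjusted p = 0.00144) and 0.94 ± 0.43 for sgXIST9 (adjusted p = 0.137, not called). In hypoxia HES1 was at 6.63, 6.35 and 5.49 CPM in sgControl, 37.6, 74.9 and 94.4 CPM in sgXIST7 and 16.6, 10.4 and 20.3 CPM in sgXIST9. The order of the lines was the same and again without overlap.

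Within each line all hypoxia libraries were above all normoxia libraries for HES1. It rose 5.60-fold in sgControl (log2 2.49 ± 0.40, adjusted p = 7.25e-05), 15.7-fold in sgXIST7 (3.97 ± 0.34, adjusted p = 4.18e-08) and 7.41-fold in sgXIST9 (2.89 ± 0.35, adjusted p = 2.71e-06). These 3 calls held with each library left out in turn. Against sgControl in hypoxia, HES1 was 11.1-fold higher with sgXIST7 (log2 3.48 ± 0.33, adjusted p = 5.32e-07) and 2.54-fold higher with sgXIST9 (1.35 ± 0.32, adjusted p = 0.00400). The sgXIST9 call was lost without any of sgControl hypoxia replicates 1 to 3 or sgXIST9 hypoxia replicate 1 or 3 (log2 1.13 to 1.39, adjusted p of 0.0107 to 0.0196) and without the replicate 3 libraries (1.06, adjusted p = 0.0547). It was also lost when only the 2 groups compared were fitted (1.36, adjusted p = 0.0181). The sgXIST7 call in normoxia was lost without sgControl normoxia replicate 2 (1.74, adjusted p = 0.0107) and without the replicate 3 libraries (1.83, adjusted p = 0.0377). The sgXIST7 calls in hypoxia and after hypoxia remained without the replicate 3 libraries, at 3.12 and 3.84.

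HEY1 (chr8:79764010-79767863, minus strand), a repressor with a hairy-related domain, was at 2 counts in each sgControl normoxia library, and its counts in normoxia were 51, 20 and 55 with sgXIST7 and 39, 28 and 25 with sgXIST9. All 6 KD libraries were above the sgControl libraries, which were at the detection limit. The depth-corrected ratio of summed counts was 14.8 with sgXIST7 (95% interval 6.63 to 41.2, adjusted p = 0.000112) and 11.9 with sgXIST9 (5.26 to 33.2, adjusted p = 0.000302). Both calls held with each library left out in turn. HEY1 passed the filter on low counts only with the KD libraries, where it was high, so these calls add no support to the counts. In hypoxia HEY1 was at 1.69, 0.695 and 0.354 CPM in sgControl, 3.30, 3.90 and 7.17 CPM in sgXIST7 and 9.21, 11.7 and 8.84 CPM in sgXIST9, again with no overlap. The difference from sgControl was 5.01-fold for sgXIST7 (log2 2.32 ± 0.41, adjusted p = 0.000308) and 10.5-fold for sgXIST9 (3.40 ± 0.41, adjusted p = 9.44e-06). Leaving out sgControl hypoxia replicate 1 took these to 3.07 and 4.13 on the log2 scale, and leaving out the replicate 3 libraries took the sgXIST7 value to 1.63 (adjusted p = 0.00367). The sgXIST7 call was lost when only the 2 groups compared were fitted (2.34, adjusted p = 0.0176).

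HEY1 rose after hypoxia in the 3 lines, by a depth-corrected count ratio of 7.16 in sgControl (95% interval 3.04 to 20.5, adjusted p = 0.00168) and by fitted log2 fold changes of 1.29 ± 0.38 in sgXIST7 (adjusted p = 0.00703) and 2.66 ± 0.38 in sgXIST9 (adjusted p = 2.01e-05). In each line the hypoxia and normoxia libraries did not overlap. The sgControl call was lost without normoxia replicate 3 (log2 2.64, adjusted p = 0.0103, against 2.75 with it) or hypoxia replicate 1 (2.01, adjusted p = 0.0148), the library with the highest count. The sgXIST7 call was lost without normoxia replicate 1 or 2 or hypoxia replicate 3 (log2 0.91 to 1.40, adjusted p of 0.0148 to 0.0496) and without the replicate 3 libraries (1.10, adjusted p = 0.0197). It was also lost when only the 2 groups compared were fitted (1.30, adjusted p = 0.014). The sgXIST9 call held with each of its libraries left out in turn and without the replicate 3 libraries (2.69). HEY2 (chr6:125749632-125761269, plus strand), the related repressor of heart and vessel development, was lower in the KD lines than in sgControl at very low counts, where HEY1 was higher. It had 8, 6 and 2 counts in sgControl normoxia and 17, 16 and 3 after hypoxia, but 7 counts or fewer summed over each group of 3 KD libraries. Its depth-corrected count ratio in hypoxia was 0.0483 (95% interval 0.00563 to 0.187) for sgXIST7 and 0.154 (0.0579 to 0.351) for sgXIST9 against sgControl, and the groups did not overlap. Without the replicate 3 libraries HEY2 passed the filter, but only through its sgControl libraries, where it was high. It was then called lower with sgXIST7 in hypoxia and with sgXIST9 in normoxia, and not in the other 2 of these comparisons. As the filter let HEY2 in through the higher group, these calls add no support to the counts.

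The 2 KD lines were compared with each other to see which differences from sgControl they shared in size. In normoxia NOTCH3 alone was called, higher in sgXIST7 by 1.73 ± 0.32 on the log2 scale (adjusted p = 0.00134), where 3.40% of all genes were called. It was 1.10 without sgXIST7 normoxia replicate 2 and still called. The call was lost without sgXIST9 normoxia replicate 3 (1.61, adjusted p = 0.0126) and without the replicate 3 libraries (1.81, adjusted p = 0.0451). When only the 2 groups compared were fitted, that call was also lost (1.74, adjusted p = 0.0345). In hypoxia HES1 alone was called, higher in sgXIST7 by 2.13 ± 0.31 (adjusted p = 0.000131), where 4.46% of all genes were called. With only the 2 groups fitted HES1 was not called (2.15, adjusted p = 0.0124). HEY1 was at -1.07 ± 0.36 in the hypoxia comparison (adjusted p = 0.0461, not called), and at -1.53 without the replicate 3 libraries (adjusted p = 0.00587, called). In hypoxia the sgXIST7 line thus had the highest HES1 and the sgXIST9 line the highest HEY1 in every library. For some of the other members the intervals remain wide, for example 0.57 for NOTCH3 in hypoxia (95% interval -0.08 to 1.22). NOTCH2 was at 0.12 in normoxia and -0.20 in hypoxia. Over the alternative runs it stayed at 0.04 to 0.17 and at -0.30 to -0.09.

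Whether the response to hypoxia itself differed between lines was tested with interaction terms, and no member was called. The call counts over all genes were 1.52% for sgXIST7 against sgControl, 1.01% for sgXIST9 against sgControl and 0.167% for sgXIST7 against sgXIST9, the last comparison being added after the data had been seen. At an unadjusted p under 0.05, 3, 0 and 4 of the 8 members passed in these 3 tests, beside 26.7%, 21.5% and 16.1% of all genes. DESeq2 also called no member. Upper-quartile scaling moved the share of higher calls among all genes from 65.6% to 75.7% in the sgXIST9 interaction. For HES1 the sgXIST7 response exceeded that of sgControl by 1.49 ± 0.53 on the log2 scale (95% interval 0.37 to 2.60, adjusted p = 0.0826). For HEY1 it was below by 1.46 (difference -1.46 ± 0.76, adjusted p = 0.226), and for NOTCH2 the difference was -0.64 ± 0.17 (adjusted p = 0.0269). A response past the threshold in 1 line is therefore not shown to differ from that in another for these genes. An exact permutation test over the libraries of 2 groups of 3 has 10 splits and cannot give a two-sided p under 0.1, which is the value for each member whose groups did not overlap.

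Levels of different genes were compared per length, as CPM per kilobase of exon (RPKM). NOTCH2 (17.4 ± 1.32 RPKM, SD, n = 3) and JAG2 (14.3 ± 1.54 RPKM) were highest in sgControl normoxia, followed by NOTCH1 (4.78 ± 0.51) and DLL3 (3.90 ± 0.36). NOTCH3 (0.992 ± 0.305) and HES1 (0.688 ± 0.293) came next and overlapped, and HEY2, HEY1, JAG1 and DLL1 were each under 0.142 RPKM. In sgXIST7 normoxia NOTCH3 (8.28 ± 5.12) stood beside NOTCH1 (8.12 ± 2.55), with overlapping libraries. In sgXIST7 hypoxia HES1 (43.8 ± 18.3) was above JAG2 (19.5 ± 4.29) and NOTCH2 (12.7 ± 1.81) in each library. In sgControl hypoxia HES1 (3.91 ± 0.38) overlapped NOTCH1 (3.28 ± 1.00), and in sgXIST9 hypoxia HES1 (10.0 ± 3.15) overlapped JAG2 (14.5 ± 3.94). HEY1 in sgXIST9 hypoxia (3.84 ± 0.60) overlapped NOTCH1 (4.16 ± 0.51) and NOTCH3 (3.46 ± 0.37).

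**Figure D3:**
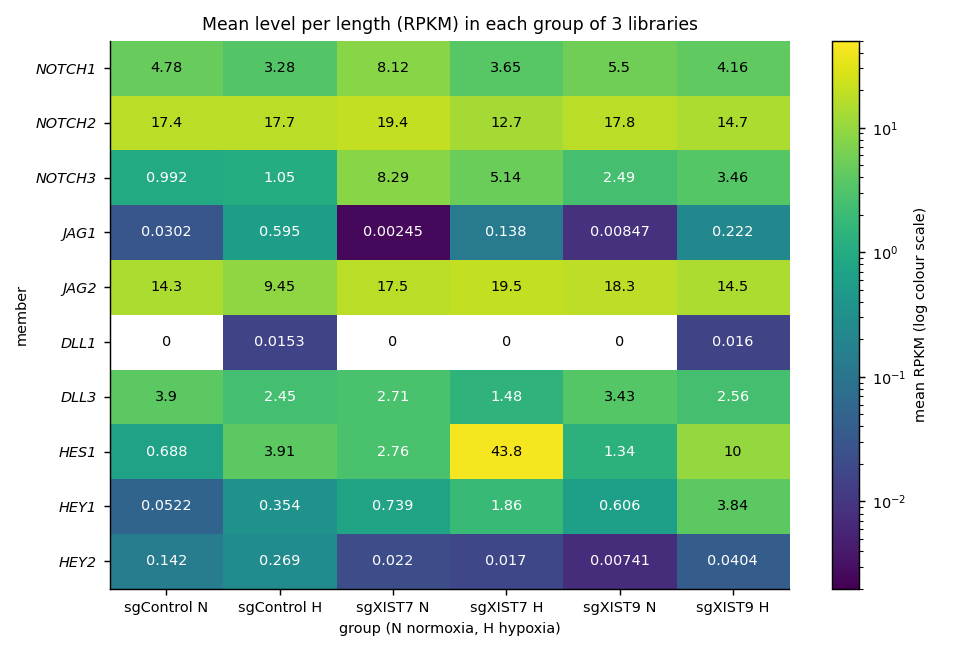
Mean level of each member per length (RPKM, log colour scale, values printed) in each group of 3 libraries, where N is normoxia and H hypoxia and white cells are groups with 0 counts. HES1 moves from 0.688 RPKM in sgControl normoxia to 43.8 RPKM in sgXIST7 hypoxia, whereas NOTCH2 stays between 12.7 and 19.4 RPKM.

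The rest of the pathway was read from a list of 49 genes in 8 roles, of which 41 were tested and 5 were at 3 counts or fewer in every library. After hypoxia 7 of the 41 were called in sgControl (6 higher), 10 in sgXIST7 (8 higher) and 11 in sgXIST9 (9 higher). The medians of the 41 were 0.39, 0.05 and 0.34 on the log2 scale. Between KD and sgControl 1 to 4 of the 41 were called in each comparison. The shares of all genes called in these comparisons are those given above for the members.

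RBPJ, the DNA-binding protein that all Notch receptors act through, rose after hypoxia in each line. It was at 80.8, 96.8 and 76.7 CPM in sgControl normoxia and 240, 266 and 325 CPM in hypoxia, a log2 fold change of 1.71 ± 0.17 (adjusted p = 4.30e-07). In sgXIST7 it went from 67.9, 84.6 and 62.4 CPM to 322, 486 and 401 CPM (2.49 ± 0.17, adjusted p = 4.50e-09), and in sgXIST9 from 58.8, 63.8 and 57.2 CPM to 175, 156 and 209 CPM (1.58 ± 0.17, adjusted p = 6.47e-07). RBPJ was also higher in sgXIST7 than in sgXIST9 under hypoxia, by 1.16 ± 0.16 (adjusted p = 0.000109), as HES1 was. Under hypoxia the sgXIST9 libraries lay below all sgControl libraries for RBPJ, a difference not called, and above them all for HES1. None of the other 4 genes of the nuclear complex was called after hypoxia in any line.

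DLL4, the Delta-like ligand known from sprouting vessels, was at 0.805, 0.464 and 0.746 CPM in sgControl normoxia and 13.5, 18.5 and 2.48 CPM after hypoxia. Replicate 3 stood below the other two, and the log2 fold change was 4.08 ± 0.54 with it (adjusted p = 1.11e-05) and 4.62 without the replicate 3 libraries. DLL4 also rose in sgXIST7 (2.51 ± 0.48, adjusted p = 0.000269) and sgXIST9 (2.44 ± 0.48, adjusted p = 0.000396). With sgControl hypoxia replicate 3 left out, the interaction terms of these rises against sgControl were -2.03 and -2.10 (adjusted p = 0.00235 and 0.00253, both called), and with it they were -1.57 and -1.64 (adjusted p = 0.176 and 0.195). DLK2, a Delta-like relative that lacks the motif of activating ligands, rose after hypoxia with counts of 4, 1 and 3 in sgControl normoxia and 34, 31 and 62 in hypoxia (4.03 ± 0.76, adjusted p = 0.000339, and 3.31 without the replicate 3 libraries). In sgXIST7 and sgXIST9, whose normoxia libraries were at 0 to 3 counts, its depth-corrected count ratio was 22.3 and 25.8. Both rises were also called without the replicate 3 libraries. DLK2 passed the filter only through its hypoxia libraries, where it was high, so its calls add no support to the counts.

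Of the ligand endocytosis genes, the ubiquitin ligase MIB2 rose by 1.91, 1.95 and 2.12 on the log2 scale in sgControl, sgXIST7 and sgXIST9 after hypoxia (largest adjusted p = 1.16e-06). NEURL1B, another ubiquitin ligase that acts on ligands, fell by 1.39, 2.25 and 1.93 (largest adjusted p = 0.00111). Without the replicate 3 libraries NEURL1B was at -0.99 in sgControl, under the fold threshold and not called, and was still called in the KD lines. In the receptor cleavage group, APH1B of the gamma-secretase rose in sgXIST7 (1.47 ± 0.21) and sgXIST9 (1.99 ± 0.21), and the protease ADAM17 rose in sgXIST7 (1.21 ± 0.16). Among the sugar transferases that modify Notch, POFUT1 fell by 1.01 in sgXIST7 (adjusted p = 1.66e-08), close to the fold threshold. It passed under that threshold, at -0.97, without sgXIST7 normoxia replicate 3 or hypoxia replicate 2, without the replicate 3 libraries (-0.98) and with DESeq2 (-0.99).

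MFNG, a fringe enzyme that tunes which ligands a receptor answers to, was higher in the KD lines throughout. Its counts were 4, 7 and 4 in sgControl normoxia, 27, 38 and 40 in sgXIST7 and 71, 85 and 68 in sgXIST9. The log2 fold changes from sgControl were 2.29 ± 0.44 (adjusted p = 0.000917) and 3.50 ± 0.42 (adjusted p = 9.11e-06) in normoxia and 2.84 ± 0.50 (adjusted p = 0.000280) and 3.23 ± 0.49 (adjusted p = 8.68e-05) in hypoxia. In sgControl hypoxia MFNG had 8 counts over the 3 libraries and at most 4 in any, close to the detection limit, so the hypoxia folds are uncertain. It passed the filter on low counts only with the KD libraries, where it was high. In none of the 4 comparisons did the libraries overlap. Of the 41 listed genes tested, MFNG was alone in being called against sgControl in all 4. It was called in 3 of them without the replicate 3 libraries and not with sgXIST7 in normoxia (2.004, adjusted p = 0.0240). After hypoxia it fell by 1.26 in sgXIST9 (adjusted p = 0.00506), a call lost without any of 4 of the 6 libraries (-1.01 to -1.35) and without the replicate 3 libraries (-1.41, adjusted p = 0.0126).

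Of the 5 other HES and HEY genes tested, 2 rose after hypoxia in sgControl, 2 in sgXIST7 and 4 in sgXIST9, and none fell. Over all genes tested, 11.3%, 15.1% and 14.7% were called higher. Several of the rises in sgXIST9, one of those in sgControl and a fall with sgXIST7 in hypoxia were each lost in runs with a single library left out. Against sgControl none of them rose, and 0 to 2 fell in each of the 4 comparisons. HES6, known as an antagonist of HES1, was at 8.18, 8.04 and 10.8 CPM in sgControl normoxia and 40.4, 33.7 and 14.8 CPM in hypoxia (log2 1.72 ± 0.28, adjusted p = 7.53e-05). In the same condition it was at 9.55, 9.29 and 9.58 CPM in sgXIST7 and 8.39, 10.2 and 5.996 CPM in sgXIST9, all below sgControl (-1.65 ± 0.28 and -1.86 ± 0.28). HES7, the clock gene of somite formation, had 28, 27 and 17 counts in sgControl normoxia and 1, 3 and 1 in sgXIST9, a depth-corrected count ratio of 0.0538 (95% interval 0.0170 to 0.132, adjusted p = 0.00106). HES7 rose after hypoxia in sgXIST7 (4.34 ± 0.63, adjusted p = 1.61e-05) and in sgXIST9 (count ratio 20.3, adjusted p = 0.000209), to 1.91, 4.85 and 11.5 CPM in the former. The sgXIST7 value was 3.37 without the replicate 3 libraries (adjusted p = 0.000165). HES4 rose in sgXIST7 (2.86 ± 0.58) and sgXIST9 (2.24 ± 0.57), and in sgXIST9 its replicate 3 was at 16.1 CPM against 3.87 and 3.58 CPM in the others. Without the replicate 3 libraries HES4 was at 2.03 in sgXIST7 (adjusted p = 6.38e-05) and at 1.00 in sgXIST9 (adjusted p = 0.0133, not called), and the call was also lost without sgXIST9 normoxia replicate 1 (2.18) or 3 (2.05) or hypoxia replicate 3 (1.19). HES7 in sgXIST7 normoxia (-2.48 ± 0.66 against sgControl, adjusted p = 0.0111) was not called in edgeR with all libraries. It was called with DESeq2 (-2.48, adjusted p = 0.00132). In edgeR it was called without sgXIST7 replicate 2 (-3.18, adjusted p = 0.00917), without the replicate 3 libraries (adjusted p = 0.00689) and with the replicate number as a block (-2.54, adjusted p = 0.00822).

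**Figure D4:**
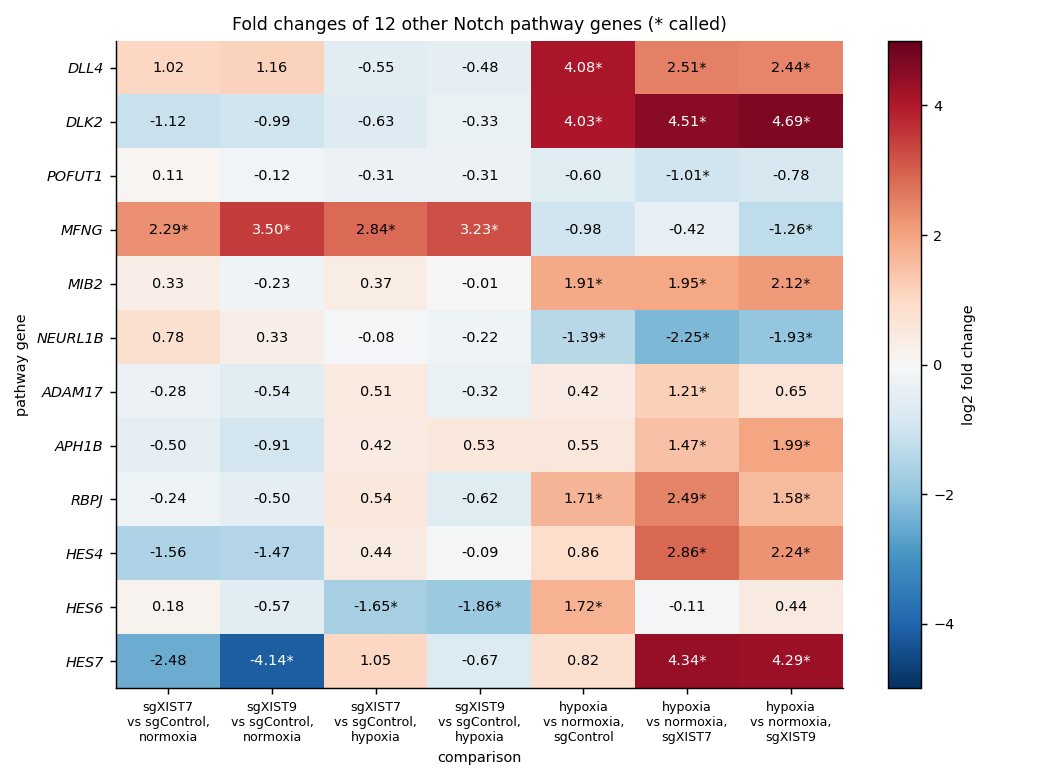
Log2 fold changes (colour and printed value) of the 12 named pathway genes outside the members in 4 comparisons with sgControl and 3 with normoxia, with an asterisk on values that were called. MFNG is called in the 4 comparisons with sgControl (2.29 to 3.50), and DLL4, DLK2, MIB2 and RBPJ rise and NEURL1B falls in all 3 hypoxia comparisons, of which the sgControl one is not called for NEURL1B without the replicate 3 libraries (-0.99), nor MFNG with sgXIST7 in normoxia (2.004).

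Across the 18 libraries HES1 followed RBPJ (Pearson r = 0.80), DLL4 (0.78) and HEY1 (0.76) and ran against DLL3 (-0.85) and NOTCH2 (-0.78). JAG1 followed DLL4 (0.84), and NOTCH3 followed MFNG (0.67), JAG2 (0.67) and HEY1 (0.65). These values describe log2 CPM over libraries that fall into 6 groups, which differ in guide and oxygen, and no test goes with them. The genes most like HES1 were CNPY2 (r = 0.97), FBXO33 (0.97), RRAGA (0.97), WRNIP1 (0.97) and KRCC1 (0.96). Their range was far narrower, as CNPY2 went from a mean of 64.6 CPM in sgControl normoxia to 153 CPM in sgXIST7 hypoxia. The genes most like HEY1 were CDS1 (0.97), P2RX6 (0.97), the antisense RNA ID2-AS1 (0.96), SMAD6 (0.96) and DUSP4 (0.96). P2RX6, an ATP-gated channel, went from a mean of 0.295 CPM in sgControl normoxia to 22.9 CPM in sgXIST9 hypoxia, the group with the highest HEY1, and DUSP4, a phosphatase of MAP kinases, from 2.28 to 144.7 CPM.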

How the data were processed

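RNA of the 18 cultures was depleted of ribosomal RNA, made into stranded libraries and sequenced in pairs. The authors used Trimmomatic for trimming, hisat2 for alignment on hg38 and featureCounts for the raw counts per gene that they deposited, and versions and the strand setting are not given in the sources used here. Of the table, 2 broken records were left out. Libraries held 11794375 to 24906936 counts (median 17629433).

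Genes that passed filterByExpr (minimum count 10, minimum total 15) were fitted in edgeR 4.0.16 (R 4.3.3) with TMM scaling (factors 0.859 to 1.115), a prior count of 0.125 and robust glmQLFit, in a single fit of the 6 groups, and tested with glmQLFTest with Benjamini-Hochberg adjustment over 14938 genes. A call needed an adjusted p under 0.01 and a log2 fold change over 1 in size. The scripts were tested on simulated data. Per-length levels used the gene lengths listed in the table. Count ratios carry 95% exact intervals, which cover counting error only, as reads have no molecular identifiers. DESeq2 1.42.0, other scalings and filters, the replicate block and left-out libraries were the alternatives. Members and lists were chosen with earlier results of these data known. All members are named, with at most 12 listed pathway genes that were called in at least 1 of 9 comparisons, by smallest adjusted p, and the 5 genes most like each of HES1 and HEY1. Same-numbered libraries deviated together (every correlation over 0.1) for sgControl and sgXIST7 in normoxia (0.148 to 0.379) and for sgControl and sgXIST9 in hypoxia (0.197 to 0.566). In the other pairs of groups not every correlation passed 0.1. Some did, up to 0.380 for sgControl and sgXIST7 and 0.492 for sgXIST7 and sgXIST9, both in hypoxia. Libraries of different number also correlated, such as sgXIST7 hypoxia replicate 1 and sgXIST9 hypoxia replicate 2 (0.474). Another such pair was sgControl hypoxia replicate 1 and sgXIST9 hypoxia replicate 2 (0.283).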

Additional observations from a re-analysis of the deposited data

Results flagged for a closer look

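HES6, a listed pathway gene, was the only member or listed gene with an interaction term called in the main edgeR fit of the 6 groups. It rose in sgControl (log2 1.72) and was at -0.11 in sgXIST7, and the interaction term was -1.83 ± 0.39 (edgeR, adjusted p = 0.00969). The term for sgXIST9 was -1.28 (adjusted p = 0.0661), and it was called without sgControl hypoxia replicate 3 (-1.59, adjusted p = 0.000975) and without replicate 3 of every group (-1.55, adjusted p = 0.00325). The sgXIST7 call was lost with any of 11 of the 12 libraries left out, at -1.55 to -1.98 (adjusted p of 0.0133 to 0.0311), and was kept without sgControl hypoxia replicate 3, the lowest of its group at 14.8 CPM. The sgXIST9 term of APH1B, at 1.44 (adjusted p = 0.0107), was called with no filter (1.46), with the replicate block (1.47) and without sgControl hypoxia replicate 3 (1.73). It was also called without replicate 3 of every group (1.82, adjusted p = 0.00164) and with DESeq2 (1.39, adjusted p = 0.000430). DESeq2 also called the sgXIST7 term of HES7 (3.56, adjusted p = 0.00120). In edgeR that HES7 term was called without sgControl hypoxia replicate 3 (3.50) or sgXIST7 hypoxia replicate 1 (3.96).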

How the results depend on the processing

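No member changed sign in a called comparison under any alternative run. For the 8 members tested in the main fit, 1589 recomputed log2 fold changes kept their direction and their side of the threshold. Of the others, 39 lost a call, 12 gained one and 24, none of them called, changed sign. HEY2, which passed the filter only in some runs, is not in this tally. With only the groups compared in the fit, members called numbered 3 for sgXIST7 against sgControl in hypoxia and 0 for sgXIST7 against sgXIST9 in normoxia and 0 in hypoxia. That fit also called fewer genes in all in the hypoxia comparisons (1113 for 2093, 641 for 1423 and 323 for 666). In the same comparisons in normoxia it called 1135 for 1159, 1271 for 1150 and 578 for 508. The libraries compared alone set the spread in both conditions. With no filter on low counts 1 member was called for sgXIST9 against sgControl in normoxia. Without replicate 3 of every group, sgXIST7 against sgXIST9 gave 0 members in normoxia and 2 in hypoxia, and an adjusted p under 0.05 gave 2 in hypoxia. Leaving out each library in turn gave 1 to 2 members for sgXIST9 against sgControl in normoxia and 3 to 6 for sgXIST7 against sgControl in hypoxia. It gave 0 to 1 for sgXIST7 against sgXIST9 in normoxia and 1 to 2 in hypoxia. The value of 6 was without sgControl hypoxia replicate 3, where HEY2 was called lower. In that run HEY2 passed the filter only through its sgControl libraries, so its call adds no support to the counts. The cause of these moves was not tested. The replicate block changed no member call, with 3 members called for sgXIST7 against sgControl in normoxia as without it, and moved the sgXIST7 interaction from 227 to 371 genes and the interaction between the KD lines from 25 to 56. DESeq2 called 548, 365 and 152 genes in the 3 interactions, against 227, 151 and 25. Without replicate 3 the interactions called 801, 485 and 59 genes. JAG1 could not be tested with a filter at a mean CPM of 1. Depth limits JAG1 in normoxia, HEY1 in sgControl normoxia, HEY2 and DLL1, whose counts lie near the detection limit of 3.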
